A study of Mus musculus with 6 samples.

Results

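The MHC and antigen presentation genes were taken from the array as every non-control probe whose gene name in the scanner files began with H2-, together with the probes for Cd74, Ciita, B2m, Tap1, Tap2, Tapbp, Nlrc5, Psmb8, Psmb9 and Psmb10. This rule found 87 of the 56605 non-control probes, which name 52 of the 37074 gene names on the array. Grouped by name, 32 genes went to class I (4 under classical heavy chains, 27 under class Ib heavy chains and the light chain B2m). A further 11 went to class II (5 chains, 5 peptide-loading genes and the invariant chain Cd74) and 8 to peptide processing or gene regulation. The class I names include H2-K2 and H2-Q5, whose probes are annotated to non-coding transcripts, and H2-L, discussed below. The remaining gene, H2-Ke6, encodes a steroid dehydrogenase and no MHC chain.

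The study compared left kidneys of WT and Selenbp1-KO mice, 3 of each, on 6 one-colour Agilent arrays. By the labels the strain of both groups was C57BL/6J and the age 8 weeks, and by the methods all mice were males fasted for 20 h before the kidney was taken. The WT mice were bought from a breeder. The methods name that strain for the WT mice alone and do not say that the Selenbp1-KO mice, which lack the gene for selenium-binding protein 1, were their littermates, so genotype and colony of origin cannot be told apart. The labels number the WT samples 2, 3 and 4 and the Selenbp1-KO samples 1, 2 and 3, and values below are given in that order.

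MHC class I molecules, a heavy chain bound to the light chain B2m, are carried by nearly all nucleated cells and present peptides cut by the proteasome in the cytosol to CD8 T cells. MHC class II molecules are made mainly by dendritic cells, macrophages and B cells, acquire their peptides in endosomes after the invariant chain Cd74 has been removed, and present them to CD4 T cells. In the kidney, the class II-bearing cells are mostly the resident macrophages and dendritic cells that lie between the tubules.

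Many class I heavy chains are near copies of one another, and this limits what a 60-base probe can tell apart. Probes for the classical chain H2-K1, for H2-L and for the class Ib chain H2-T23 are shown for this reason. Each lies in the part of the coding sequence that spans the membrane, at chr17:34133984-34134043 on the minus strand, chr17:35403191-35403250 on the plus strand and chr17:36167338-36167574 on the minus strand of mm9 (the build in the scanner files). The capitals mark the run of 29 bases that the 3 probes share.
H2-K1: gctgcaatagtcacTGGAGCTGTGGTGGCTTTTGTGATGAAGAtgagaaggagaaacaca
H2-L: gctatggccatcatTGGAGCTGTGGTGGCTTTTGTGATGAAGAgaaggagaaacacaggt
H2-T23: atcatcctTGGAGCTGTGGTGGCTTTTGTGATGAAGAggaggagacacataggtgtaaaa

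Across all 51 class I probes, 10 shared a run of at least 14 bases with a probe of another member gene, and the longest run was 31 bases, between H2-L and H2-T23. The C57BL/6 haplotype has no H2-L gene, and the accessions of both H2-L probes in the files also list H2-D1. In the same way the H2-Q7 probes list H2-Q9, the H2-Q8 probe lists H2-Q6, and the H2-T22 and H2-T9 probes list each other's gene. Class I values are therefore given under the name on the array, and the share of each signal that came from a related gene was not tested. The 18 class II probes had little such overlap, with a longest run of 12 bases shared with another member gene. The coding probes of the class II β chain H2-Ab1 (chr17:34404357-34404416, plus strand, mm9) and α chain H2-Aa (chr17:34421285-34421344, minus strand, mm9) are shown because both were called higher in Selenbp1-KO kidneys.
H2-Ab1: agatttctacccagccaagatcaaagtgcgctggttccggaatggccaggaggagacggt
H2-Aa: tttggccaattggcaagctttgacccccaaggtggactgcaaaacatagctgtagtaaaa

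All values are log2 of the processed signal relative to the 75th percentile of the same array, so that 0 is the signal of the 75th percentile, and a difference is the Selenbp1-KO mean minus the WT mean. A gene is represented by its brightest probe. limma's moderated test was fitted on all 56097 probes tested, and a gene was called when its unadjusted p was under 0.05. The same tool and unadjusted threshold are named in the methods. No member passed Benjamini-Hochberg adjustment, and each called member had an adjusted p of 0.279, the lowest over the 87 probes. Among all 36778 genes tested, 6.87% were called higher and 1.13% lower in Selenbp1-KO kidneys, and over all probes the figures were 6.47% and 1.51%. With 3 arrays against 3 an exact permutation test of a single gene cannot give a p below 0.10. Selenbp1 itself measured 7.07, 7.02 and 7.02 in WT and 4.13, 3.98 and 4.10 in Selenbp1-KO kidneys, so each array matched its label. Between 51.8% and 55.5% of spots on each array were well above background.

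A level of -5.00, the mean over the arrays of the lowest signal that was well above background, served as the background level. By their mean over the 6 arrays, 8 of the 11 class II genes, 20 of the 32 class I genes, all 8 processing and regulator genes and H2-Ke6 lay above it. Of the 19724 genes above that level, 4.59% were called higher and 1.2% lower. All Selenbp1-KO arrays lay above all WT arrays for 12.4% of them, and all WT arrays above all Selenbp1-KO arrays for 6.3%. This matters because 15 member probes, for 13 genes, had only the floor value that the scanner software writes for an undetected spot on all 6 arrays. After division by the 75th percentile those floors differed by 0.36 to 0.40 between the group means, whereas quantile normalization gave -0.01 to 0.08 for the same probes. By array, the median floor was -7.48, -7.57 and -7.05 in WT and -7.01, -6.81 and -7.12 in Selenbp1-KO kidneys. WT replicate 4 thus lay among the Selenbp1-KO arrays. The 75th percentile itself was 711, 751 and 519 in WT and 566, 477 and 584 in Selenbp1-KO kidneys. Over all probes the median difference was 0.11, and 0.001 after quantile normalization. The plot of difference against level shows these probes as a tight group at the left, near 0.4.

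**Figure D1:**
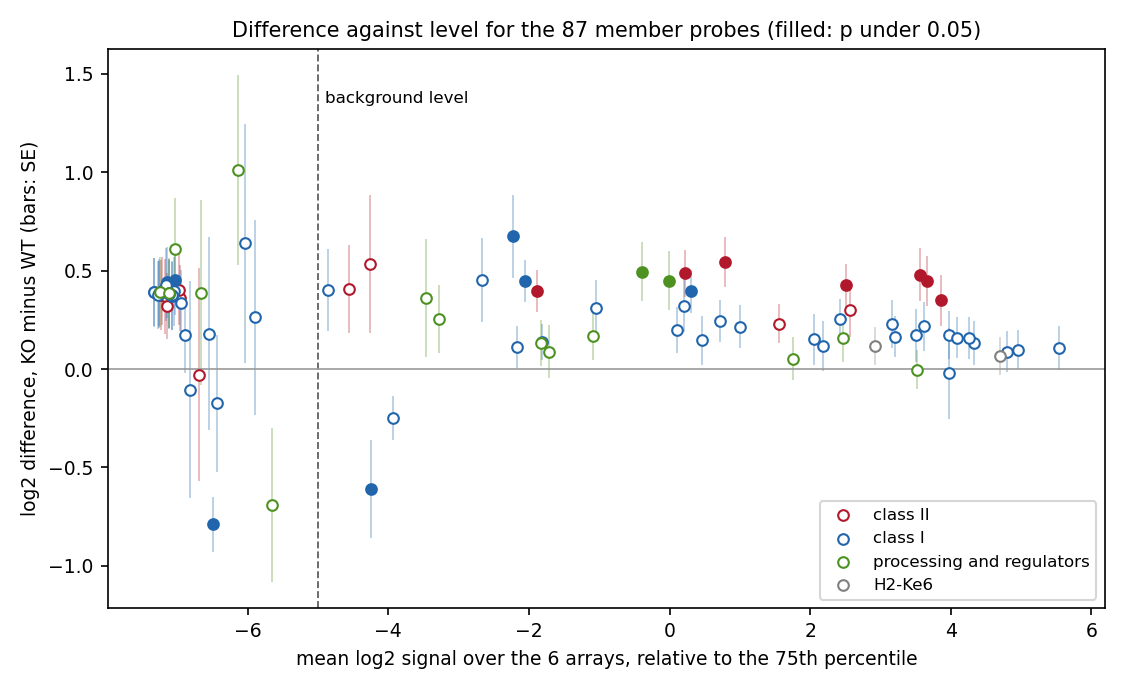
Log2 difference (Selenbp1-KO minus WT, with its SE) against mean log2 signal over the 6 arrays for each of the 87 member probes, coloured by class, filled where p was under 0.05. The filled class II probes all lie to the right of the dashed background level of -5.00, between 0.35 and 0.54, and the probes at the floor gather near 0.4 at the far left.

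The 3 class II chains that were measured above background were all called higher in Selenbp1-KO kidneys, by 1.27-fold to 1.40-fold. H2-Aa, the α chain of I-A, measured 0.01, -0.10 and 0.04 in WT and 0.55, 0.56 and 0.29 in Selenbp1-KO kidneys. The groups did not overlap, and the Selenbp1-KO kidney with the lowest value was replicate 3. The difference was 0.49 ± 0.12 (SE, 3 arrays a group, 95% interval 0.19 to 0.78).

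H2-Ab1, the β chain that pairs with H2-Aa, measured 3.30, 3.45 and 3.56 in WT and 3.95, 3.98 and 3.72 in Selenbp1-KO kidneys. Again the groups were apart and replicate 3 was the lowest of the Selenbp1-KO arrays. The difference was 0.45 ± 0.13 (SE, 95% interval 0.14 to 0.76). This gene had 4 probes, all well above background on every array, and each was called higher, with differences from 0.42 to 0.54. The largest came from the coding probe shown above, which measured 0.40, 0.49 and 0.67 in WT and 1.17, 1.09 and 0.93 in Selenbp1-KO kidneys. Another pair of its probes is not independent, since they overlap by 51 bases and differ at 1 of them.

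H2-Eb1, the β chain of I-E, measured 3.54, 3.65 and 3.89 in WT and 4.11, 4.07 and 3.95 in Selenbp1-KO kidneys. WT replicate 4 and Selenbp1-KO replicate 3 were only 0.06 apart here, the narrowest gap of the 3 chains. The difference was 0.35 ± 0.13 (SE, 95% interval 0.04 to 0.66). H2-Eb1 lost its call when any single array other than WT replicate 4 was left out. The α chain of I-E is not transcribed in C57BL/6 mice, and its probe, H2-Ea-ps, was well above background on no array. H2-Eb2 was likewise well above background on no array.

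Among the class II loading genes, H2-DMa was called higher. It encodes the α chain of DM, the endosomal molecule that exchanges the invariant chain remnant for other peptides. H2-DMa measured -2.02, -2.18 and -2.04 in WT and -1.59, -1.69 and -1.77 in Selenbp1-KO kidneys, which differed by 0.40 ± 0.11 (SE, 95% interval 0.14 to 0.66). All Selenbp1-KO values were above all WT values, and here too replicate 3 was the lowest of them.

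Its partner chain H2-DMb1 measured 1.34, 1.51 and 1.46 in WT and 1.68, 1.70 and 1.62 in Selenbp1-KO kidneys. The groups did not overlap, but the difference of 0.23 ± 0.10 (SE, adjusted p = 0.279) did not pass the test. Cd74, the invariant chain that escorts class II molecules to the endosome, measured 2.29, 2.47 and 2.50 in WT and 2.72, 2.90 and 2.54 in Selenbp1-KO kidneys. Its groups were also apart, by 0.04 between WT replicate 4 and Selenbp1-KO replicate 3, and its difference of 0.30 ± 0.13 (SE, adjusted p = 0.279) did not pass either.

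H2-Oa and H2-Ob encode DO, a modulator that holds DM in check, and both were close to background. H2-Oa measured -4.18, -4.12 and -5.28 in WT and -3.97, -3.70 and -4.31 in Selenbp1-KO kidneys. Of the WT arrays, 2 of 3 had it well above background. Without WT replicate 4, its lowest array, the difference of 0.53 ± 0.35 (SE, adjusted p = 0.449) became 0.16. H2-Ob had a difference of 0.41 ± 0.22 (SE, adjusted p = 0.352) with overlapping groups. H2-DMb2 was well above background on no array.

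In all, 4 of the 11 class II genes were called higher and none lower, against 6.87% and 1.13% of all genes tested. Of the 8 above the background level, 4 were called and 6 had groups that did not overlap, against 4.59% and 12.4% of genes above that level. The median difference of those 8 genes was 0.40, where all genes above the level had a median of 0.02. WT replicates 2 and 3 were in the upper row of the slide, and WT replicate 4 was in the lower row with all Selenbp1-KO arrays. With the slide row as a block, only WT replicate 4 serves as the WT side. The differences were then 0.43 for H2-Aa, 0.33 for H2-Ab1, 0.15 for H2-Eb1 and 0.36 for H2-DMa, and of these 4 only H2-Aa was still called. H2-Oa was called in addition, at 1.29.

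**Figure D2:**
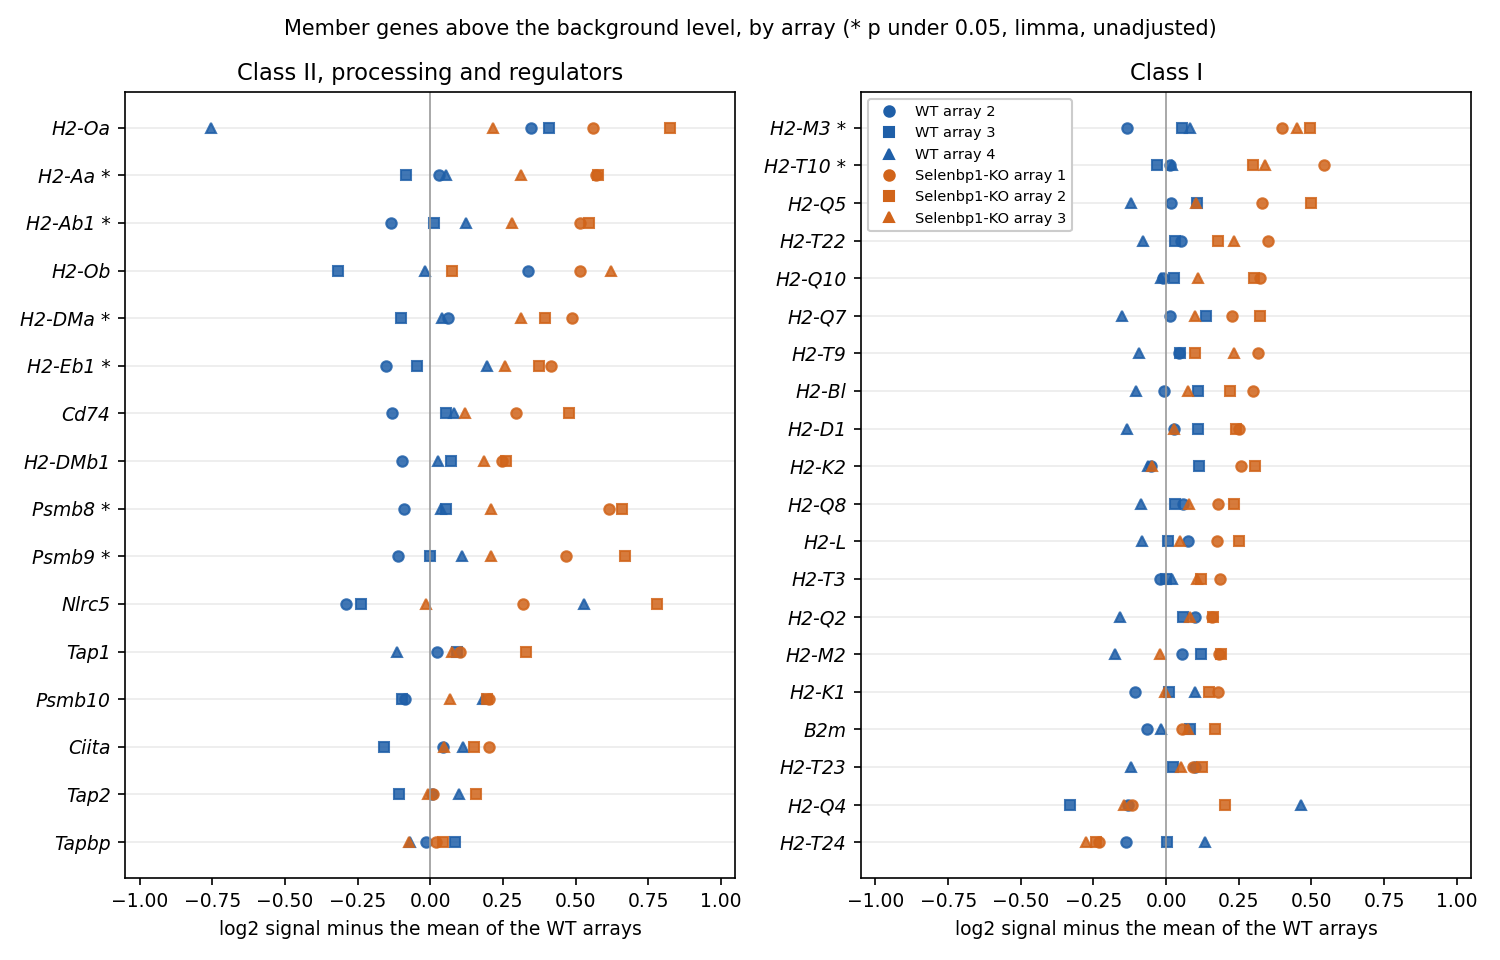
Log2 signal on each array minus the mean of the 3 WT arrays, for the member genes above the background level other than H2-Ke6 (class II, then processing and regulators on the left, class I on the right, each ordered by difference). Blue marks are WT and orange marks Selenbp1-KO arrays, with 1 symbol per replicate. In H2-Aa, H2-Ab1, H2-DMa, H2-M3 and H2-T10 the orange marks stand clear of the blue ones, while in H2-K1, B2m and Tapbp they are intermingled.

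The classical class I genes showed smaller values, and none was called. H2-K1, one of the 2 classical heavy chains of this strain, measured 5.39, 5.50 and 5.59 in WT and 5.67, 5.64 and 5.49 in Selenbp1-KO kidneys. The groups overlapped, because Selenbp1-KO replicate 3 lay below 2 of the WT arrays. The difference was 0.11 ± 0.11 (SE, 95% interval -0.17 to 0.38, adjusted p = 0.668), so differences up to 0.38 lie within the interval. The membrane-region probe shown above gave 0.16 for the same gene.

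H2-D1, the other classical chain, measured 3.92, 4.00 and 3.75 in WT and 4.14, 4.13 and 3.92 in Selenbp1-KO kidneys. Its groups overlapped and its difference was 0.17 ± 0.12 (SE, 95% interval -0.13 to 0.47, adjusted p = 0.489). The H2-L probe, read as H2-D1 or a related gene, gave 0.16 ± 0.11 (SE, adjusted p = 0.470), and H2-K2, a class I gene related to H2-K1, gave 0.17 ± 0.14 (SE, adjusted p = 0.543). The 4 differences ranged from 0.11 to 0.17.

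B2m, the light chain that every class I molecule needs, measured 4.83, 4.98 and 4.88 in WT and 4.96, 5.07 and 4.97 in Selenbp1-KO kidneys. The groups overlapped and the difference was 0.10 ± 0.10 (SE, adjusted p = 0.657). A second B2m probe (chr2:121974599-121974658, plus strand, mm9), upstream of the first and designed on another cDNA, went the other way. It measured -3.96, -4.29 and -3.57 in WT and -4.86, -4.20 and -4.61 in Selenbp1-KO kidneys, close to the background level, with a difference of -0.61 ± 0.25 (SE, 95% interval -1.21 to -0.01). Its groups overlapped, and which B2m transcript it detects was not tested.

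Among the class Ib genes, which are less variable between strains and bind more specialised ligands, 2 of the 15 above the background level were called higher. H2-M3, which presents N-formylated peptides of bacteria and mitochondria, measured -2.41, -2.22 and -2.19 in WT and -1.88, -1.78 and -1.82 in Selenbp1-KO kidneys. All Selenbp1-KO arrays were above all WT arrays, by a difference of 0.45 ± 0.11 (SE, 95% interval 0.19 to 0.71). H2-T10, a ligand of some γδ T cell receptors, measured 0.12, 0.08 and 0.13 in WT and 0.65, 0.41 and 0.45 in Selenbp1-KO kidneys, and the groups were again apart. Its difference was 0.39 ± 0.11 (SE, 95% interval 0.13 to 0.66).

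H2-T22, the close relative of H2-T10 that binds the same receptors, measured 2.35, 2.33 and 2.22 in WT and 2.65, 2.47 and 2.53 in Selenbp1-KO kidneys. The groups did not overlap, and its difference of 0.25 ± 0.10 (SE, adjusted p = 0.279) fell just outside the threshold. H2-T9, whose probe lists H2-T22 too, measured 0.94, 0.94 and 0.80 in WT and 1.21, 0.99 and 1.13 in Selenbp1-KO kidneys, with a difference of 0.22 (adjusted p = 0.308). H2-Q8 measured 3.18, 3.15 and 3.04 in WT and 3.30, 3.36 and 3.20 in Selenbp1-KO kidneys, with a difference of 0.16 (adjusted p = 0.424). In both genes the groups were apart, although neither passed the test.

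H2-T3, which encodes the thymus leukaemia antigen, measured -1.91, -1.89 and -1.87 in WT and -1.70, -1.77 and -1.78 in Selenbp1-KO kidneys, with a difference of 0.14 (adjusted p = 0.459). H2-Q10, which encodes a secreted class I molecule best known from liver, measured 0.58, 0.62 and 0.57 in WT and 0.91, 0.89 and 0.70 in Selenbp1-KO kidneys, with a difference of 0.25 ± 0.11 (SE, adjusted p = 0.279). The groups of both genes were apart without passing the test. H2-Q10 had 4 probes above the background level with differences from 0.15 to 0.68, of which 1 was called (0.68 ± 0.21, SE, 95% interval 0.16 to 1.19), so the probes differed in size but not in sign.

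H2-T24 was the only member gene above the background level with all WT arrays on the higher side. Its brightest probe measured -3.94, -3.80 and -3.67 in WT and -4.03, -4.05 and -4.08 in Selenbp1-KO kidneys, with a difference of -0.25 ± 0.11 (SE, adjusted p = 0.279), and all WT arrays lay above all Selenbp1-KO arrays. Its second probe gave -0.79 ± 0.14 (SE, 95% interval -1.13 to -0.44) but was well above background on no array. With normexp background correction the brightest probe gave 0.13, and it was called lower after quantile normalization, so its direction and its call depended on the processing.

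The other class Ib genes above the background level had overlapping groups and were not called. H2-Q4 measured 3.86, 3.66 and 4.45 in WT and 3.87, 4.19 and 3.84 in Selenbp1-KO kidneys, which differed by -0.02 ± 0.23 (SE), and without WT replicate 4 it was 0.21. The differences of H2-T23, which encodes Qa-1, and of H2-Q7, which encodes Qa-2, were 0.09 and 0.22. H2-Q2 gave 0.13, H2-M2 0.12, H2-Bl 0.20 and H2-Q5 0.31. The remaining 12 class Ib genes, among them the H2-M10 genes known from the vomeronasal organ, were well above background on no array. H2-M10.1 and H2-M5 were called among them, at 0.45 and 0.44, but these probes lay near the floor and gave 0.13 and 0.11 after quantile normalization.

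In all, 4 of the 32 class I genes were called higher and none lower, against 6.87% and 1.13% of all genes tested. Of the 20 above the background level, 2 were called higher, H2-M3 and H2-T10, against 4.59% of genes above that level. Among these 20 genes, 7 had all Selenbp1-KO arrays above all WT arrays and 1 the reverse, against 12.4% and 6.3%. Their median difference was 0.17, beside 0.40 for the 8 class II genes. The median of the class II genes, taken on each array after subtracting each gene's WT mean, was -0.03, -0.02 and 0.05 in WT and 0.50, 0.44 and 0.27 in Selenbp1-KO kidneys. The same median over the 20 class I genes was 0.01, 0.04 and -0.08 in WT and 0.21, 0.21 and 0.08 in Selenbp1-KO kidneys. Both medians were higher on every Selenbp1-KO array than on every WT array, and the class II median was the larger on each Selenbp1-KO array. No p is given for a score over chosen genes. With the slide row as a block, many class I differences grew. The 6 class II genes well above background on every array all had smaller differences with that block. The median of the 4 classical class I genes was 0.24 there, beside 0.17 without it. H2-Q7, H2-T22 and H2-Q2 gave 0.37, 0.33 and 0.29, though H2-Q4 and H2-T24 gave -0.48 and -0.38. H2-Eb1, H2-DMb1 and Cd74 gave 0.15, 0.20 and 0.22. H2-Oa and H2-Ob, both close to background, gave 1.29 and 0.42. Over all 32 class I and 11 class II genes, floor included, the medians with the block were 0.18 and 0.32. Without it they were 0.25 and 0.38. These sets take in 12 class I and 3 class II genes well above background on no array. Over the 20 and 8 genes above the level, the gap between the medians was smaller with the block than without it. Selenbp1-KO replicate 3 was the lowest Selenbp1-KO array for 7 of the 8 class II and 15 of the 20 class I genes.

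**Figure D3:**
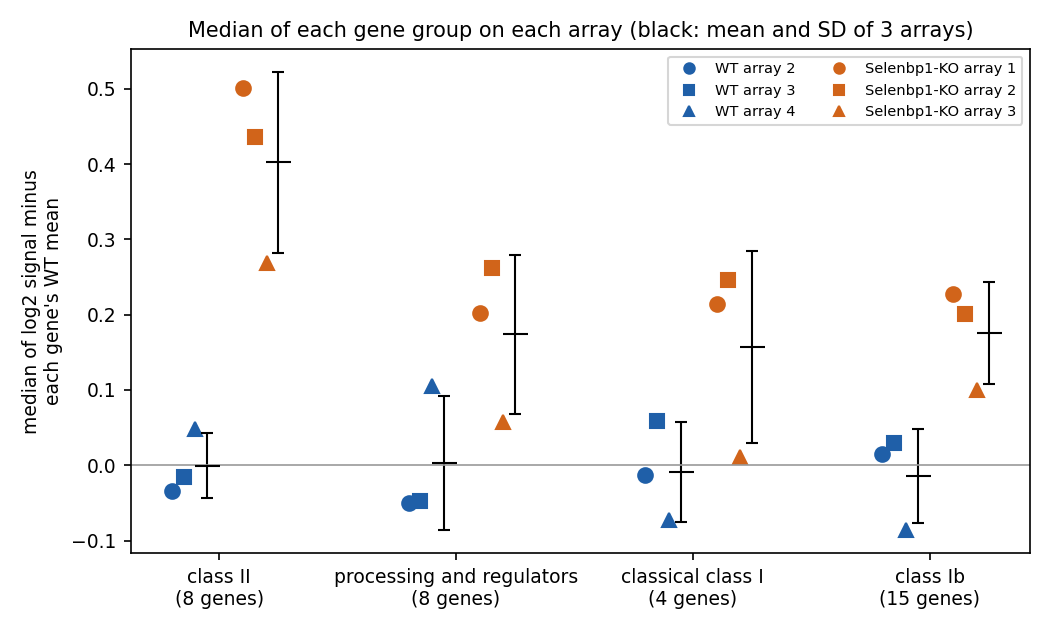
Median over the genes of each group of log2 signal minus the gene's WT mean, on each array, for genes above the background level (class II, 8 genes; processing and regulators, 8; classical class I, 4; class Ib, 15). Black bars give the mean and SD of the 3 arrays of a genotype. The Selenbp1-KO class II medians reach 0.27 to 0.50, while those of the classical class I genes span 0.01 to 0.25 and meet the WT range.

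Of the genes that prepare class I peptides, the immunoproteasome subunits Psmb8 and Psmb9 were called higher. These subunits replace catalytic subunits of the standard proteasome and are inducible by interferon-γ. Psmb8 measured -0.73, -0.58 and -0.60 in WT and -0.02, 0.02 and -0.43 in Selenbp1-KO kidneys, which differed by 0.50 ± 0.15 (SE, 95% interval 0.13 to 0.86). Psmb9 measured -0.35, -0.24 and -0.13 in WT and 0.23, 0.43 and -0.03 in Selenbp1-KO kidneys, which differed by 0.45 ± 0.15 (SE, 95% interval 0.08 to 0.82). In both genes the groups were apart, and Selenbp1-KO replicate 3 lay nearest to the WT arrays. The third subunit, Psmb10, gave 0.16 ± 0.12 (SE, adjusted p = 0.541) with overlapping groups. Neither Psmb8 nor Psmb9 was called with the slide row as a block, at 0.46 and 0.34, nor when WT replicate 2, Selenbp1-KO replicate 1 or Selenbp1-KO replicate 2 was left out.

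Tap1 and Tap2, the subunits of the transporter that carries peptides into the endoplasmic reticulum, gave 0.17 ± 0.12 and 0.05 ± 0.11 (SE), with overlapping groups. Tapbp, or tapasin, which bridges class I molecules to that transporter, measured 3.51, 3.61 and 3.46 in WT and 3.55, 3.57 and 3.46 in Selenbp1-KO kidneys. Its difference was -0.003 ± 0.10 (SE, 95% interval -0.25 to 0.24), and a second Tapbp probe gave 0.09. That second probe measured -1.66, -1.65 and -1.98 in WT and -1.59, -1.79 and -1.64 in Selenbp1-KO kidneys, so neither probe separated the groups.

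The transactivators of the pathway were not called. Ciita, the master regulator of class II transcription, measured -1.85, -2.05 and -1.78 in WT and -1.69, -1.74 and -1.84 in Selenbp1-KO kidneys. The groups overlapped and the difference was 0.13 ± 0.12 (SE, 95% interval -0.15 to 0.42, adjusted p = 0.5997). Nlrc5, its class I counterpart, gave 0.36 ± 0.30 (SE, adjusted p = 0.568), with WT values of -3.93, -3.88 and -3.11 and Selenbp1-KO values of -3.32, -2.86 and -3.65 that overlapped. H2-Ke6, which shares only the name, gave 0.07 ± 0.10 (SE, adjusted p = 0.768). In all, 2 of the 8 processing and regulator genes were called higher and none lower, against 6.87% and 1.13% of all genes tested (4.59% and 1.2% of those above the background level).

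**Figure D4:**
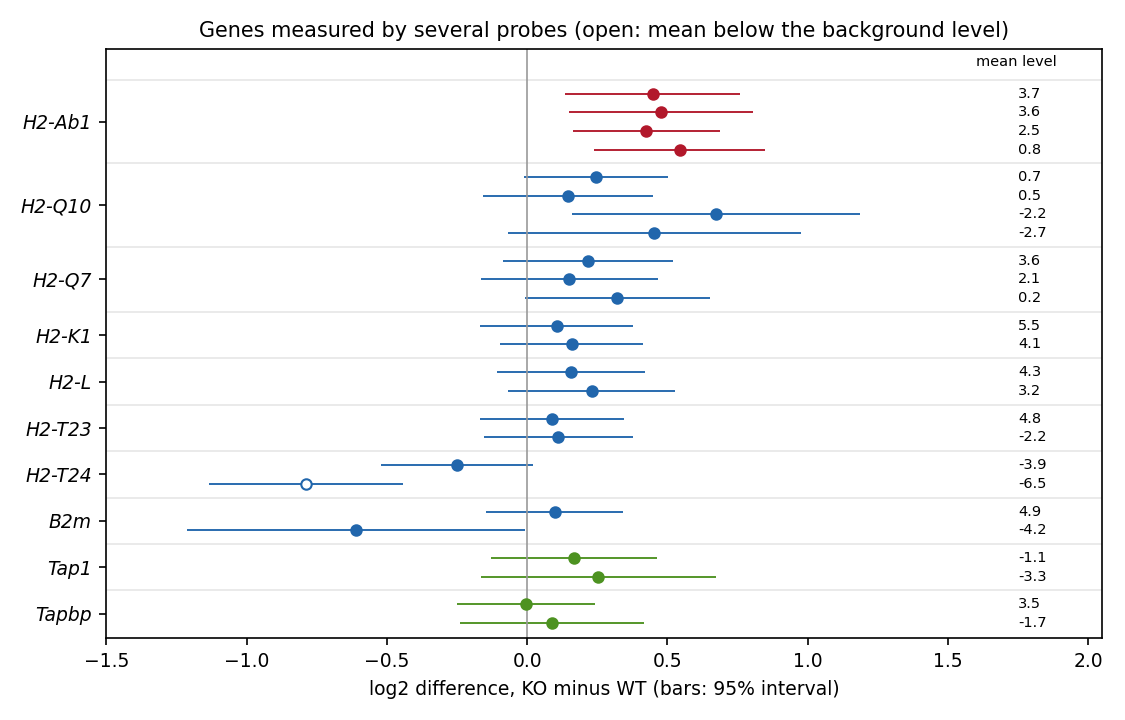
Log2 difference (Selenbp1-KO minus WT) with its 95% interval for each probe of 10 genes that had several, red for class II, blue for class I and green for processing genes. The mean level of each probe stands at the right, with open marks lying below the background level of -5.00. The 4 H2-Ab1 probes lie together between 0.42 and 0.54, while the B2m probes lie on opposite sides of 0.

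Genes of both classes are known to be driven through a shared set of promoter boxes, one of which, the Y box, binds the factor NF-Y. The 250 bases before the transcription start of 36 of the 52 genes were available from RefSeq (GRCm38.p6), and the letters CTGATTGG were searched on both strands. They occurred in 17 of these 36 genes, beside 4.43% of all 27025 genes in the table. By class they occurred in 11 of 22 class I genes, 4 of 8 class II genes and 2 of 5 processing genes. The latter 2, Psmb9 and Tap1, lie head to head and share the same box. Most of the class I genes with the box are H2-M genes that hold it at a similar place, 76 bases before the start in H2-M1, H2-M10.1 and H2-M10.5. The matches are therefore not independent of one another. H2-Ab1 and Cd74 had no promoter entry and were not searched. The bases from 120 to 31 before the start are shown for a pair of class II and a pair of class I genes that hold the box (capitals), at chr17:34287854-34287943 (minus strand), chr17:34305747-34305836 (plus), chr17:35262974-35263063 (plus) and chr17:36032732-36032821 (minus).
H2-Aa: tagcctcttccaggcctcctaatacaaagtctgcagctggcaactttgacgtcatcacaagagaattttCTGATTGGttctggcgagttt
H2-Eb1: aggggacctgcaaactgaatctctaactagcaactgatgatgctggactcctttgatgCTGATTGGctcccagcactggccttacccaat
H2-D1: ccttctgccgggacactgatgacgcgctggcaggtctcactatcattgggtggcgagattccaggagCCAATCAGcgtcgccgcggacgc
H2-T23: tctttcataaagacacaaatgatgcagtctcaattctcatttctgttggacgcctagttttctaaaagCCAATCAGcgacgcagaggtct

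In the 4 class II genes with a match the letters read along the strand of the gene, and in the 11 class I genes along the opposite strand. Genes with the box were called (H2-Aa and H2-Eb1, at 0.49 and 0.35) and not called (H2-D1 and H2-T23, at 0.17 and 0.09), and several H2-M genes that hold it were not above background. The match is a description of these letters only, and H2-DMa and H2-M3, both called, had no exact match in the window.

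Of the other genes of the pathway, 4 of the 44 measured were called higher and 1 lower, beside 6.87% and 1.13% of all genes, with a median difference of 0.04. On the class I side, Cd1d1 and Cd1d2, MHC-like chains that present lipids, gave 0.55 ± 0.14 and 0.43 ± 0.15 (SE). Both are outside the rule that chose the members. They lie on chromosome 3, which also carries the targeted gene Selenbp1. Ctss (chr3:95360162-95360221) and Rfx5 (chr3:94764543-94764602), given below, lie on it too (mm9). Whether DNA around the targeted gene has a part in these values was not tested. The other 13 class I pathway genes, including the chaperones Calr, Canx and Pdia3 and the constitutive proteasome subunits Psmb5, Psmb6 and Psmb7, were not called.

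On the class II side, Ctss, a protease that takes part in the late cleavage of the invariant chain, gave 0.31 ± 0.12 (SE, 95% interval 0.03 to 0.60), and was not called with the slide row as a block (0.38). Cd86, a co-stimulatory ligand of antigen-presenting cells, gave 0.55 ± 0.13 (SE, 95% interval 0.22 to 0.88). The other 10 genes of that list were not called. Among 17 regulators, including the RFX and NF-Y subunits and Irf1, only Irf2 was called, at -0.27 ± 0.10 (SE, 95% interval -0.51 to -0.04). With the slide row as a block Irf2 was not called, while Rfx5 (0.65) and Ifngr2 (0.31) were called higher and Creb1 (-0.37) lower, all 3 named after their values were seen. Of 26 interferon-induced genes, Irf7, Isg15 and Oas1a were called higher, at 0.32, 0.46 and 0.35, against 6.87% of all genes. The median of the list was 0.10. With the slide row as a block, none of these 3 was called, and Mx1, well above background on no array, was the 1 call of the list, at -0.74.

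Most markers of macrophages were, like most class II genes, higher in Selenbp1-KO kidneys. The median difference of the 13 macrophage markers was 0.51, and 5 were not called. Of these 5, Fcgr1, well above background on no array, gave 0.38, Adgre1 0.36, Cx3cr1 0.35, Csf1r 0.17 and Mertk -0.06. With the slide row as a block they gave -0.59, 0.04, -0.28, 0.18 and -0.09 in that order. The other 8 were called higher (Cd68, C1qa, C1qb, C1qc, Mrc1, Cd163, Lyz2 and Ms4a7), against 6.87% of all genes. With the slide row as a block, 4 of them were still called. The summed linear signal of the 13 markers was 17.9 to 21.2 times the 75th percentile in WT and 23.96 to 25.9 in Selenbp1-KO kidneys. That of the 11 class II genes was 30.3 to 36.4 in WT and 39.1 to 45.2 in Selenbp1-KO kidneys. The order of the WT arrays differed, with 21.2, 17.9 and 19.1 for the macrophage markers and 30.3, 33.1 and 36.4 for class II. Most of the macrophage sum came from the brightest markers, Csf1r (log2 3.33, 3.05 and 3.17 in WT) and Lyz2 (2.74, 2.22 and 2.24). The order is therefore theirs and not that of the list. In WT, C1qc measured -0.38, -0.23 and -0.01, and Mrc1 -3.45, -3.66 and -3.93. Among 9 dendritic cell markers, Clec10a was called at 0.995 ± 0.16 (SE, 95% interval 0.61 to 1.38) and the summed signal was 0.569 to 0.640 in WT and 0.743 to 0.968 in Selenbp1-KO kidneys. Without Clec10a the sum was 0.425 to 0.504 in WT and 0.480 to 0.614 in Selenbp1-KO kidneys, which overlap. The part of these cells in the class II values was not tested, and in whole kidney more cells of a type and more RNA per cell cannot be told apart.

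The lists of other cell types had fewer calls than the macrophage list, and their counts stand beside 6.87% of all genes called higher and 1.13% lower. Of 9 B cell markers, with a median of 0.17, Pax5 and Fcer2a were called higher, and the summed signal overlapped between groups (0.552 to 0.714 in WT and 0.614 to 0.730 in Selenbp1-KO kidneys). Cd3e was called among 10 T and NK cell markers, with a median of 0.24, and Cd53 among 5 markers of all leukocytes, with a median of 0.32, and both summed signals overlapped (2.11 to 2.59 and 2.48 to 2.79 for T and NK cells, 2.81 to 3.44 and 2.98 to 3.31 for all leukocytes). Fcer2a and Cd53 were well above background on no array, and with the slide row as a block Pax5, Cd3e and Cd53 were not called (0.84, 0.13 and 0.62). None of 7 endothelial markers and none of 12 kidney epithelial markers was called (unadjusted p under 0.05 in limma), with medians of 0.03 and -0.02. All 12 kidney markers were well above background on every array, as the tissue label requires.

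**Figure D5:**
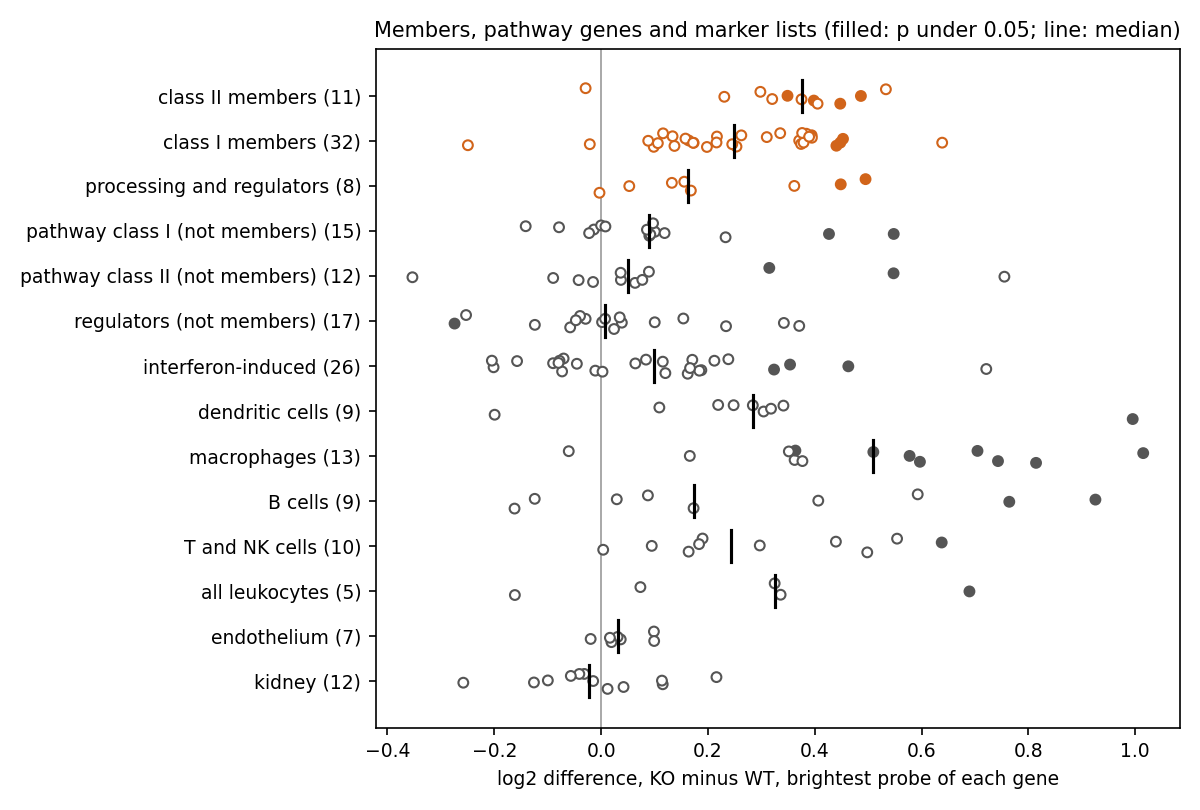
Log2 difference (Selenbp1-KO minus WT) of each gene, by its brightest probe, for the class I, class II and processing members and for the lists of other pathway genes and cell type markers, with the number of genes measured in brackets. Filled points have p under 0.05 and vertical lines mark medians. The class II and macrophage medians lie at 0.38 and 0.51, and those of the endothelial and kidney markers near 0.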

How the data were processed

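Total RNA of 6 left kidneys was labelled with Cy3 and hybridised by the authors to one-colour Agilent mouse arrays on 1 slide. The deposited scanner files hold 62976 spots each, and their headers give Feature Extraction 10.7.1.1 and mm9, while the submitters' processing notes give version 9.5.1.1. The intensity used was the processed signal, which the authors' software had background-subtracted and detrended and which carries a floor value for undetected spots. The deposited detection p-value per spot came from the same software. The deposited value table holds quantile-normalized intensity and served as an alternative.

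Outlier spots were left out, log2 intensity was taken relative to each array's 75th percentile (477 to 751), and spots of a probe were averaged. The test took in each probe detected at p under 0.05 on 1 array or more, and used lmFit and eBayes in limma 3.58.1 (R 4.3.3), two-sided, with Benjamini-Hochberg adjustment over all probes. The methods name limma and the threshold but no normalization. The methods count 3 mice of each genotype, 1 array a mouse, and that number limits the precision. The fit was tested on simulated data first.

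The members and lists were chosen with earlier results of these data known. Member genes well above background throughout 1 genotype or both were named with values. Among these, values on all arrays were given where p was under 0.05, where groups did not overlap, where probes disagreed in sign, and for 8 genes in any case. Dimmer genes named beside them were chosen after their values were seen. Background correction, normalization, filters, slide row, replicate number, probe choice and each array were varied. Replicate numbers 2 and 3 occur in both genotypes, but nothing ties same-numbered arrays across genotypes.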

Additional observations from a re-analysis of the deposited data

How the results depend on the processing

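With the unadjusted p of limma, the count of called probes of 4479 became 14616 with scaling by the median, 2841 over probes well above background, 7536 with a trended robust prior and 18430 with the replicate block, and ranged from 2024 to 17585 as each array was left out, the highest without WT replicate 4. The 4 class II calls became 2 with the slide row as a block, 3 with the replicate block, and 3 to 6 as each array was left out. The 4 class I calls became 7 with quantile normalization, with the authors' value table and over probes well above background (in each, H2-T24 was called lower), 11 with scaling by the median, with the trended robust prior and with the replicate block, 2 with the slide row as a block (H2-M3 higher, H2-T24 lower) and 2 over genes above the background level (a limit chosen after seeing the data). They ranged from 2 to 13 as each array was left out, the highest without WT replicate 4, and the added calls there and under median scaling were mostly H2-M genes near the floor. The 2 processing calls became 0 with the slide row or the replicate block, and 0 to 2 as each array was left out. The pathway calls, 5, became 9 with quantile normalization and the authors' table, and 2 to 7 as each array was left out.

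The class I median of 0.25 over all 32 genes became 0.113 with quantile normalization and 0.114 with the authors' table, and ranged from 0.21 to 0.28 as each array was left out; the class II median of 0.38 ranged from 0.33 to 0.42. H2-Aa and H2-M3 were called under every alternative tried, 19 each. H2-Ab1, H2-DMa and H2-T10 were called in 17, all but the slide row and replicate blocks, H2-Eb1 in 12, Psmb8 in 14 and Psmb9 in 13. After adjustment 4 members passed with the trended robust prior (H2-Aa, H2-Ab1, H2-Eb1 and Psmb8) and 12 without WT replicate 4, of which 9 lay below the background level.

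Signs turned only in genes that were not called: B2m with the mean of its probes (-0.26), H2-T24 with normexp (0.13), H2-M2 with the replicate block (-0.0036), H2-Q4 with the replicate block (0.26) and as each array was left out (-0.19 to 0.21), and with the slide row as a block Psmb10 (-0.027), Nlrc5 (-0.17), Tap2 (-0.047) and Tapbp (0.068). Tapbp also turned with the mean of its probes (0.043) and as each array was left out (-0.038 to 0.039), and Tap2 over the same range of fits (-0.00049 to 0.103). The causes were not tested. Only numbers 2 and 3 are shared by both genotypes, and the deviations of same-numbered arrays correlated at 0.17 and 0.19, so the block leaves out WT replicate 4 and Selenbp1-KO replicate 1 and is no pairing.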
